A study of Brassica napus with 48 samples.

Results

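Seeds of the Brassica napus hybrid Lumen were compared between 14 and 7 days after flowering (DAF) in control plots of the optimal sowing date. The comparison was chosen by the sample labels alone (genotype Lumen, treatment control, sowing date optimal) and holds 6 of the 48 RNA-seq libraries, with 3 at each time. Lumen is a spring rapeseed hybrid that was grown in the field, and control plots carried no nets, so that the source of assimilates relative to the seeds (the source–sink ratio) was not manipulated. The other groups used here are also Lumen at 7 and 14 DAF, with 3 libraries each: shaded plots of the optimal sowing date, where black nets intercepted 75% of the radiation between the start of flowering and 15 DAF, and the control and shaded plots of the late sowing date. A library pools seeds of 5 plants in 1 plot (25 siliques taken per plant), so it averages over embryo, endosperm and seed coat and over seeds and plants. Fewer cells of a type and less RNA per cell cannot be told apart in such samples.

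In the days after fertilization the rapeseed seed is mainly seed coat and endosperm, which form while their cells divide and expand, and the embryo is small. Cell division then slows, the seed coat fills with flavonoids (proanthocyanidins, the pigments of the brown coat), and only later does the embryo accumulate oil and storage proteins under master regulators of the LEC1, FUS3 and WRI1 kind. Replicating cells need new core histones, the proteins around which DNA is wound, and growing cells need ribosomal proteins. The flavonoid pathway starts from phenylalanine with phenylalanine ammonia-lyase (PAL), its first dedicated step is chalcone synthase (CHS), and further enzymes and transporters carry the products to the vacuole.

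The deposited value of a gene is its normalized TPM, a transcript abundance scaled to library size and transcript length that can be compared between genes, rounded to a whole number. In the 6 libraries the values summed to between 936506 and 1019708 TPM, and between 53029 and 53918 of the 101040 genes listed were above 0. The 10 most abundant genes held between 4.81 and 5.21% of the TPM of a library. For the 9490 genes whose mean reached 20 TPM, the median absolute log2 difference between libraries of one time was 0.13 to 0.17, and between libraries of different times 0.26 to 0.34. The genotype label was checked with 47 genes seen only in Solar, the other hybrid of the study, and 51 seen only in Lumen, both defined in the late sowing date at 14 DAF. Transcripts of the Solar genes made up no more than 1.75% of the sum over both sets in each of the 6 libraries, as in all 18 Lumen libraries outside the definition. They were under 50% in 6 of the 18 Solar libraries outside it, but no library labelled Solar entered the main tests. Labels of the tissue could be checked only in part, because of 9 embryo and seed markers 2 had an annotated gene here, of 5 seed coat markers 3, of 5 endosperm markers 1 and of 6 silique wall markers 0. TT12, GL2 and TT19 of the seed coat were detected in all 6 libraries. The endosperm gene, BnaA07g23350D, an ortholog of the sucrose transporter SUC5, was at 2, 2 and 1 TPM at 7 DAF and at 0, 1 and 0 TPM at 14 DAF. Of the embryo and seed markers the oleosin BnaA07g14960D was listed at 0 in all 6 libraries, and the 3 copies of WRI1 were at 0 to 8 TPM. Of the wider silique wall and valve margin list 2 genes, both copies of SHP1, were tested, with sums of 28, 23 and 35 TPM and then 23, 28 and 21 TPM.

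At 14 DAF, 1647 genes were higher and 1420 genes lower than at 7 DAF among 53585 genes tested (limma on log2(TPM + 0.5), Benjamini-Hochberg adjusted p under 0.01, which is the threshold used throughout). Together these are 5.72% of the genes tested, with 3.07% higher and 2.65% lower, and 13617 genes had an unadjusted p under 0.05. The median difference was 1.21 among the genes that rose and −1.23 among those that fell, on the log2(TPM + 0.5) scale, against 0 over all genes tested. On that scale the difference was more than 4-fold for 396 genes that rose and 289 that fell, and more than 16-fold for 60 and 11. The 2 groups of 3 values did not overlap in 1643 of the rising and 1414 of the falling genes, against 26.3% of all genes tested. The A chromosomes gave 782 rising and 730 falling genes of 25262 tested, and the C chromosomes 858 and 688 of 28154. With 1 library left out the number of genes past the threshold was smaller, at 1807, 1939 and 1881 without replicates 1, 2 and 3 of 7 DAF and 1648, 2066 and 2093 without those of 14 DAF, and no gene of the 3067 changed its direction.

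**Figure D1:**
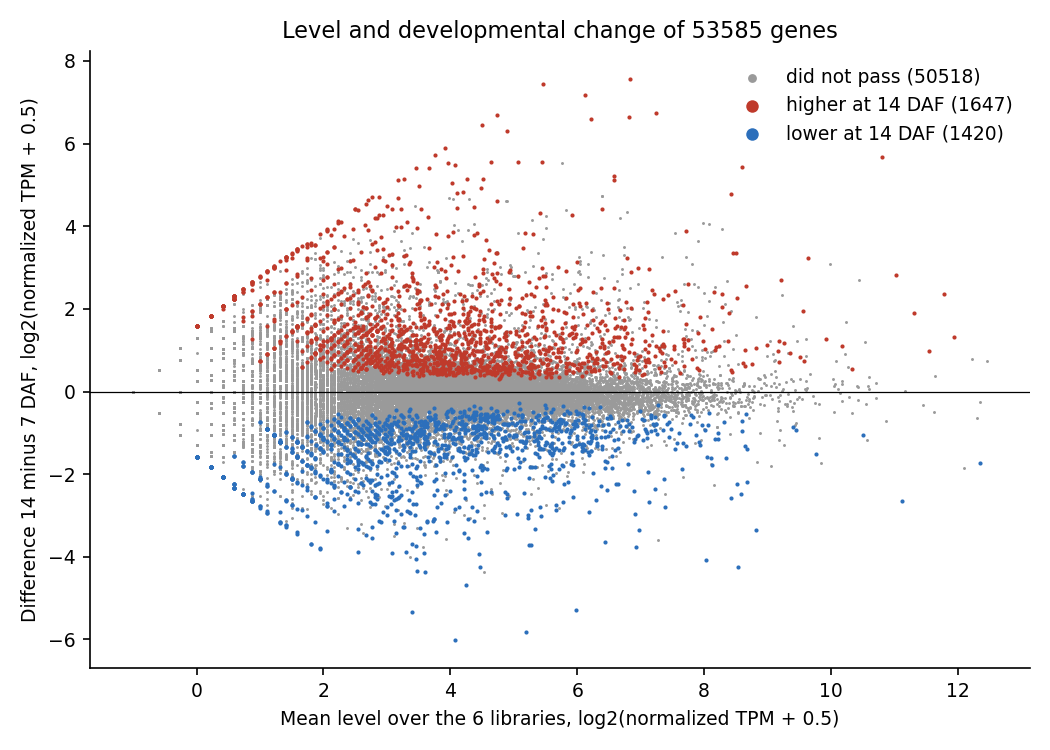
Difference between 14 and 7 DAF (y axis, log2(normalized TPM + 0.5)) against the mean level over the 6 libraries (x axis, same scale) for the 53585 genes tested. Red points are the 1647 genes higher and blue points the 1420 genes lower at 14 DAF, and both occur from the lowest to the highest levels.

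Several genes were found at one time only. In 32 genes all 3 libraries were listed at 0 at 7 DAF and reached at least 5 TPM at 14 DAF, and 26 of them passed the test. The reverse held for 7 genes, of which 6 passed. BnaC03g31600D, which has no annotation in the sources used here, was listed at 0 in all 3 libraries at 7 DAF and at 66, 99 and 97 TPM at 14 DAF. BnaA03g26710D, an ortholog of Arabidopsis AT5G37474, was likewise listed at 0 and then at 41, 60 and 56 TPM. BnaC04g30640D was at 2, 1 and 3 TPM and then at 115, 493 and 286 TPM, a fitted difference of 6.75 ± 1.04 (SE). Among the genes that fell, BnaCnng22600D was at 44, 24 and 30 TPM at 7 DAF and listed at 0 in every library at 14 DAF, and BnaAnng39320D was at 25, 18 and 17 TPM and then at 0. BnaA02g19670D fell from 94, 54 and 65 TPM to 1, 0 and 2 TPM and BnaC02g23010D from 157, 102 and 107 TPM to 3, 1 and 5 TPM. Groups that do not overlap were a condition for naming these genes. Their calls held with each library left out.

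BnaCnng28790D and BnaC07g01680D were among the 5 largest rises of all genes with at least 10 TPM, but their levels at 14 DAF were uneven. BnaCnng28790D was at 1, 0 and 0 TPM at 7 DAF and at 491, 34 and 151 TPM at 14 DAF. BnaC07g01680D was at 0, 1 and 0 TPM and then at 240, 33 and 140 TPM. The replicate order was the same in both, with replicate 1 high and replicate 2 low at 14 DAF. BnaCnng28790D was not past the threshold without replicate 1 of 14 DAF (adjusted p = 0.017) or without replicate 2 or 3 of 7 DAF (0.0109 and 0.0111), and BnaC07g01680D was not past it without replicates 1 or 3 of either time (adjusted p between 0.0144 and 0.0215).

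Of the 53585 genes tested, 4678 carry an Arabidopsis ortholog or a protein family in the readable annotation, and 298 of these (6.37%) passed the test, 173 higher and 125 lower. This annotation comes from gene tables that the study selected partly on these same samples, so shares within it are no independent evidence of a direction. Besides the flavonoid genes described next, the annotated genes that rose most encoded a mixed set of proteins. BnaC07g18750D, an ortholog of SAG12, a cysteine protease known as a senescence marker in Arabidopsis leaves, was at 2, 37 and 10 TPM at 7 DAF and at 1844, 216 and 200 TPM at 14 DAF. Its groups did not overlap, which the rule for naming these genes required, but a single library held most of its signal. The gene was not past the threshold without that library, replicate 1 of 14 DAF (log2 difference 4.39, adjusted p = 0.013), or without replicate 1 of 7 DAF (adjusted p = 0.013). BnaC01g00680D, an ortholog of the inositol phosphate synthase AT4G39800, which makes the precursor of inositol and of the seed phosphate store phytate, rose from 0, 1 and 1 TPM to 11, 23 and 21 TPM (4.11 ± 0.60, adjusted p = 1.6e-04). BnaA10g22980D, a VQ motif protein, rose from 1, 0 and 1 TPM to 22, 22 and 21 TPM. BnaC06g36700D, a jacalin-like lectin, was at 28, 39 and 26 TPM and then at 336, 207 and 204 TPM. A protein kinase gene, BnaA01g08850D, rose from 6, 8 and 6 TPM to 59, 49 and 54 TPM, BnaA01g09570D with leucine-rich repeats from 1, 1 and 1 TPM to 10, 16 and 10 TPM, and BnaC08g33550D with armadillo repeats from 3, 3 and 4 TPM to 21, 30 and 17 TPM. In these 6 genes every library at 14 DAF was above every library at 7 DAF, as the naming rule required. Their calls held with each library left out.

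In 2 further strong risers the call depended on the libraries included. BnaA01g04810D, related to the secreted signal protein TPD1, was at 1, 3 and 1 TPM and then at 32, 74 and 46 TPM, and was not past the threshold without replicates 1 or 3 of 7 DAF or 2 or 3 of 14 DAF (adjusted p between 0.0108 and 0.016), although its difference stayed between 4.29 and 5.01 in all 6 such fits. BnaC05g27600D, a ubiquitin-conjugating enzyme, was listed at 0 in all libraries of 7 DAF and at 24, 1 and 11 TPM at 14 DAF. It passed in 1 of the 6 fits with a library left out, that without replicate 2 of 14 DAF, and its adjusted p reached 0.061 without replicate 1 of 14 DAF.

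Of 18 phenylpropanoid, flavonoid and seed coat genes tested, 8 rose and 0 fell (14 and 0 at an unadjusted p under 0.05), 16 had a difference above 0, and their median difference was 1.18, against 3.07% rising genes and a median of 0 over all genes. Summed over the members, the level was 410, 450 and 491 TPM at 7 DAF and 1107, 994 and 1034 TPM at 14 DAF. With 1 library left out, between 4 and 7 members rose. The list was written with earlier results of these data known.

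The 3 annotated copies of CHS, which condenses malonyl units onto an activated cinnamic acid to make the first chalcone, all rose. BnaA10g19670D, the most abundant copy, went from 28, 35 and 43 TPM to 149, 122 and 155 TPM (2.01 ± 0.40, adjusted p = 0.00247). BnaA03g04590D rose from 2, 3 and 2 TPM to 43, 36 and 40 TPM, and its counterpart on the C genome, BnaC03g06120D, from 2, 3 and 3 TPM to 26, 32 and 30 TPM. Their differences were 3.84 ± 0.44 (adjusted p = 1.5e-05) and 3.25 ± 0.51 (adjusted p = 3.2e-04). These values were larger than that of the abundant copy, but the copies were not tested against each other. At 2 or 3 TPM, the level of the scarce copies at 7 DAF, rounding to whole TPM affects the difference. The A and C copies have similar sequences, and how reads were shared between them is set by the quantification. The call of BnaA10g19670D was lost without replicates 1 or 2 of 7 DAF or 1 or 3 of 14 DAF (adjusted p between 0.0104 and 0.0163), while those of the other 2 copies held with each library left out.

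The enzymes of later steps given in this paragraph had no value at 14 DAF below any at 7 DAF, and part of them passed the test. BnaA10g23330D, the flavonoid 3′-hydroxylase that adds a hydroxyl group to the B ring, was the most abundant member, with 144, 120 and 158 TPM at 7 DAF and 298, 293 and 274 TPM at 14 DAF (1.04 ± 0.18, adjusted p = 7.3e-04). BnaA10g25120D, a chalcone isomerase-like protein, was at 88, 112 and 116 TPM and then at 218, 190 and 169 TPM (adjusted p = 0.0095), and its call was lost without any 1 of the 6 libraries (adjusted p between 0.0152 and 0.0561). The flavanone 3-hydroxylase copies BnaC08g22640D and BnaA09g31780D went from 38, 51 and 48 to 96, 97 and 96 TPM and from 17, 25 and 23 to 52, 35 and 47 TPM, and missed the threshold at adjusted p = 0.014 and 0.027. The chalcone isomerase BnaC08g26020D (37, 47 and 37 TPM, then 107, 63 and 91 TPM) and the flavonol synthase BnaA10g22800D (13, 14 and 18 TPM, then 28, 32 and 28 TPM) also did not overlap between times, with adjusted p = 0.023 and 0.025.

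At the entry of the pathway, 2 of 4 copies of PAL2 rose. BnaA09g33560D went from 5, 5 and 6 TPM to 14, 13 and 13 TPM and BnaC08g24360D from 3, 3 and 3 TPM to 9, 9 and 8 TPM, the former not past the threshold without replicates 1 or 2 of 7 DAF or 1 of 14 DAF (adjusted p between 0.011 and 0.0119). The other copies, BnaA07g16060D and BnaA04g04830D, were higher in every library at 14 DAF but at adjusted p = 0.025 and 0.028, and the PAL1 gene BnaA05g07370D was at 1, 2 and 1 TPM and then at 6, 2 and 4 TPM (adjusted p = 0.21). At the other end of the pathway, BnaA07g18120D, an ortholog of TT12, which moves proanthocyanidin precursors into the vacuole, rose from 13, 13 and 12 TPM to 36, 20 and 35 TPM, a call that was kept only without replicate 2 of 14 DAF (adjusted p between 0.017 and 0.035 in the other 5 fits). BnaA10g17440D, an ortholog of TT19, a glutathione transferase of the same branch, was at 5, 7 and 6 TPM and then at 4, 30 and 23 TPM, so its groups overlapped (adjusted p = 0.41). MUM4, which makes rhamnose for seed coat mucilage, and MYB5, a seed coat transcription factor, were the members with a difference below 0: BnaA05g14410D was at 6, 4 and 6 TPM and then at 5, 5 and 5 TPM, and BnaC05g39780D at 3, 2 and 5 TPM and then at 1, 1 and 5 TPM.

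**Figure D2:**
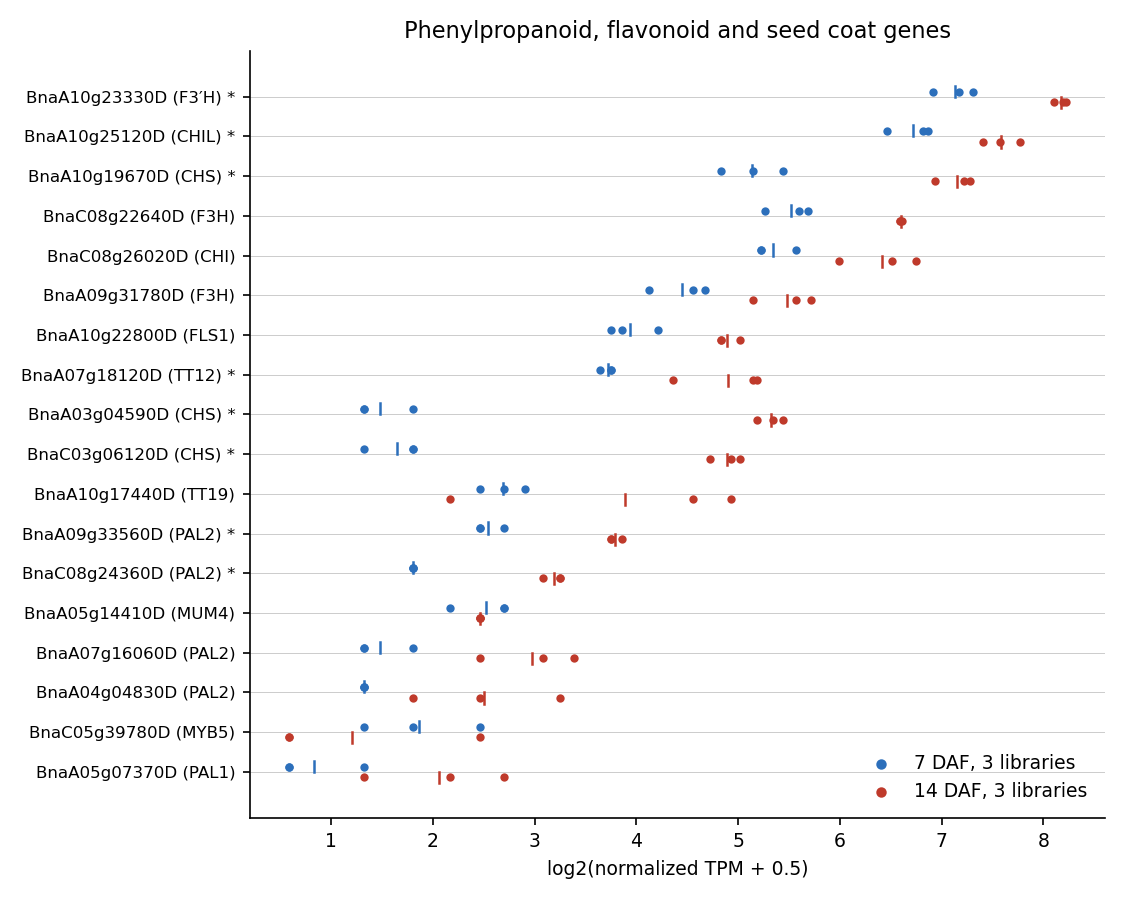
Levels (x axis, log2(normalized TPM + 0.5)) of the 18 phenylpropanoid, flavonoid and seed coat genes in each library, with 7 DAF in blue and 14 DAF in red, 3 points per time and a short vertical line at their mean. Asterisks mark the 8 members that passed the test, and in 14 members all red points lie to the right of all blue points. Of all genes tested, 26.3% had no overlap between times, in either direction.

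Core histones showed the opposite pattern. Of 33 members tested, 15 fell and 0 rose (27 and 0 at an unadjusted p under 0.05), 31 had a difference below 0, and the median difference was −0.75, against 2.65% falling genes and a median of 0 over all genes. Their summed level was 5442, 5257 and 5241 TPM at 7 DAF and 3228, 3335 and 3561 TPM at 14 DAF. All 4 core types were among those that fell: 4 of 10 H2A genes, 4 of 8 H2B genes, 3 of 8 H3 genes and 4 of 7 H4 genes. With 1 library left out, between 6 and 12 members fell. In 32 of the 33 genes the values of the times did not overlap, against 26.3% of all genes tested. Of these, 1, the H2B gene BnaC08g24680D, was higher at 14 DAF (241, 217 and 198 TPM, then 243, 256 and 256 TPM, adjusted p = 0.59).

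The H4 gene BnaA05g06970D fell from 430, 373 and 392 TPM to 173, 176 and 190 TPM (−1.15 ± 0.16, adjusted p = 1.2e-04). BnaC09g06910D, an H3 gene, fell from 340, 317 and 356 TPM to 123, 143 and 172 TPM, although its call was lost without replicate 3 of 7 DAF or replicate 1 of 14 DAF (adjusted p = 0.0103 and 0.0147). The H2B genes BnaC03g55640D and BnaC03g11030D fell from 51, 52 and 46 TPM to 17, 13 and 27 TPM and from 69, 56 and 60 TPM to 25, 18 and 27 TPM. The most abundant histone gene, BnaC01g00910D, was at 762, 710 and 654 TPM and then at 607, 592 and 616 TPM. It was lower in every library at 14 DAF, but its difference of −0.23 ± 0.16 did not pass (adjusted p = 0.42). This gene is an ortholog of AT4G40030, which encodes the H3.3 variant that is also made outside DNA replication. Whether histone variants differ in their change was not tested.

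Of 15 cell cycle and DNA replication genes 2 fell and 0 rose (4 and 1 at an unadjusted p under 0.05), with a median of −0.26, and the 2 are 13.3% of the list against 2.65% falling genes over all genes. BnaCnng01120D, an ortholog of MCM7, a subunit of the helicase that opens DNA for replication, fell from 11, 10 and 10 TPM to 6, 5 and 6 TPM (−0.82 ± 0.15, adjusted p = 0.0011). The D-type cyclin BnaC01g26510D (CYCD3;3) fell from 16, 18 and 16 TPM to 6, 8 and 6 TPM, but not past the threshold without replicates 1 or 2 of 7 DAF or 1 or 3 of 14 DAF (adjusted p between 0.0101 and 0.0162). The mitotic B-type cyclins and the kinase CDKA;1 (BnaC01g25750D, 30, 28 and 25 TPM, then 23, 21 and 25 TPM) did not pass. Of 13 cyclins, in part the same genes, 2 fell and 0 rose, with a median of 0.00. Among 10 tubulins and kinesins 1 rose and 0 fell (5 and 2 at an unadjusted p under 0.05), with a median of 0.31. Over all genes 3.07% rose, and that 1 call was lost without any 1 of the 6 libraries.

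Ribosomal protein genes were lower by small amounts. Of 164 members 143 had a difference below 0 and the median was −0.31, with 2 that fell and 0 that rose (52 and 3 at an unadjusted p under 0.05), so the share past the threshold (1.22%) was below that of all genes. Their sum was 8554, 9157 and 8877 TPM at 7 DAF and 7090, 7066 and 7706 TPM at 14 DAF. BnaC04g38260D fell from 81, 77 and 81 TPM to 49, 50 and 48 TPM, with a call that held with each library left out. The most abundant member, BnaC03g08960D, was at 471, 424 and 471 TPM and then at 375, 425 and 465 TPM, with overlapping groups. The number of members that fell was 10 after rescaling every library to the same sum and also 10 after quantile normalization.

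The list of light harvesting and photosystem genes also held BnaA04g08640D, which encodes a small chain of ribulose bisphosphate carboxylase. That gene was at 123, 142 and 98 TPM and then at 165, 42 and 242 TPM (difference −0.008). All 9 members had a difference below 0 (median −0.53), as had 47.15% of all genes tested. Against 2.65% falling genes over all genes, 1 of the 9 fell and 0 rose (5 and 0 at an unadjusted p under 0.05). This was BnaA09g34720D, a chlorophyll-binding antenna protein, with 77, 79 and 77 TPM at 7 DAF and 35, 40 and 46 TPM at 14 DAF, a call lost in 5 of the 6 fits with a library left out.

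Among the annotated genes that fell most was BnaA08g10090D, a transporter of the multidrug and toxin extrusion family, which fell from 23, 24 and 19 TPM to 1, 1 and 1 TPM (−3.90 ± 0.49, adjusted p = 3.6e-05). BnaC07g20260D, an ortholog of the pectin methylesterase PME5, which removes methyl groups from wall pectin, fell from 28, 26 and 28 TPM to 2, 3 and 3 TPM (−3.15 ± 0.27). BnaA10g23320D, an ortholog of a callose-binding protein of plasmodesmata, fell from 16, 14 and 15 TPM to 1, 1 and 2 TPM, and BnaC04g40170D, an ortholog of the wall-loosening expansin EXPA6, from 8, 11 and 12 TPM to 1, 3 and 2 TPM. No values overlapped between times in these genes, which was a condition for naming them.

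The aspartic proteases BnaA10g23500D and BnaC03g09490D fell from 56, 55 and 63 TPM to 6, 7 and 8 TPM and from 12, 12 and 10 TPM to 2, 1 and 2 TPM. The other 14 of the 16 aspartic peptidases did not pass, and over all genes 2.65% fell. BnaC07g20100D, a NUDIX hydrolase, fell from 36, 28 and 27 TPM to 3, 4 and 5 TPM. BnaA07g19600D, an ortholog of the lipoxygenase LOX2, which makes the precursor of jasmonate, fell from 59, 49 and 48 TPM to 11, 13 and 20 TPM, and the hydrolase gene BnaA07g06370D from 30, 30 and 28 TPM to 6, 7 and 8 TPM. BnaC08g12990D, an ortholog of AT4G28310, was at 10, 15 and 30 TPM and then at 4, 4 and 3 TPM. BnaA07g22240D, an ortholog of MYB95, fell from 14, 11 and 12 TPM to 2, 3 and 3 TPM, a call lost without replicate 1 of either time (adjusted p = 0.0101 and 0.0123). The calls of the other genes in this paragraph held with each library left out.

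The cell wall lists had 1 or 2 passing members in a direction, to be read against 3.07% rising and 2.65% falling genes overall. Among 14 wall-loosening and xyloglucan enzymes 1 rose and 1 fell, among 20 pectin enzymes 1 rose and 2 fell, and among 11 callose and cellulose synthases 2 rose and 0 fell (5 and 0 at an unadjusted p under 0.05). With 1 library left out, 0 or 1 of the synthases and 0 or 1 of the pectin enzymes rose. The riser of the first list was BnaC07g42500D, a xyloglucan enzyme of glycoside hydrolase family 16 and an ortholog of AT4G30270, with 61, 95 and 76 TPM at 7 DAF and 335, 345 and 307 TPM at 14 DAF (2.10 ± 0.31, adjusted p = 1.8e-04). The other copy of the same ortholog, BnaC01g08130D, was at 42, 27 and 30 TPM and then at 15, 12 and 17 TPM, which missed the threshold (−1.13, adjusted p = 0.011), so these copies had differences of opposite sign. BnaC01g06090D, an ortholog of the cellulose synthase CESA1, was at 40, 38 and 42 TPM and then at 62, 63 and 58 TPM, and its call was lost without any 1 of the 6 libraries (adjusted p up to 0.028). Of 6 gibberellin-regulated proteins 1 rose: BnaC03g11560D went from 132, 122 and 164 TPM to 514, 638 and 434 TPM (1.91 ± 0.26, adjusted p = 7.0e-05).

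In the pectin list, BnaA01g10000D, a pectin acetylesterase, rose from 6, 5 and 7 TPM to 15, 18 and 12 TPM, a call lost without replicate 2 of either time (adjusted p = 0.0131 and 0.0133), and BnaA07g23730D, with a pectinesterase inhibitor domain, fell from 5, 3 and 4 TPM to 0, 1 and 0 TPM. Water channels also went both ways. The counts in this paragraph are to be read against 3.07% rising and 2.65% falling genes over all genes. Of 10 aquaporins 1 rose and 1 fell: BnaA03g27130D, an ortholog of AT4G00430, fell from 23, 18 and 16 TPM to 6, 8 and 9 TPM (−1.26 ± 0.18, adjusted p = 1.3e-04), and the more abundant BnaA08g10860D, an ortholog of AT4G35100, was at 261, 312 and 294 TPM and then at 367, 445 and 400 TPM, a call lost without any 1 of the 6 libraries (adjusted p up to 0.055). Of 12 genes with the domain shared by lipid transfer proteins and small seed storage proteins 1 rose, BnaC01g07530D, which was listed at 0 at 7 DAF and at 4, 6 and 5 TPM at 14 DAF. The sulfotransferase BnaC06g34990D, an ortholog of SOT18, which acts in the last step of the glucosinolate core in Arabidopsis, rose from 4, 6 and 4 TPM to 13, 17 and 12 TPM (adjusted p = 6.1e-04). Of 5 serine carboxypeptidases 1 fell, BnaA03g02410D, from 47, 41 and 48 TPM to 15, 16 and 18 TPM, with a call that was lost without replicates 1 or 3 of 7 DAF or 1 or 2 of 14 DAF (adjusted p between 0.0128 and 0.0173).

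The peroxidases had a summed level of 4874, 4423 and 5066 TPM at 7 DAF and 8571, 7761 and 8096 TPM at 14 DAF. Most of this was 1 gene, BnaA01g11800D, an ortholog of AT4G21960, which was at 4310, 3839 and 4556 TPM and then at 7378, 6846 and 6847 TPM, the highest level of all genes at 14 DAF. Its values did not overlap, but it just missed the threshold (0.73 ± 0.18, adjusted p = 0.0107). Of 13 peroxidases tested 2 rose and 1 fell, against 3.07% rising and 2.65% falling genes over all genes. BnaC01g01400D rose from 56, 69 and 54 TPM to 173, 150 and 156 TPM with each library left out, whereas the calls of BnaA10g19500D (363, 364 and 304 TPM, then 873, 627 and 939 TPM) and of the falling BnaA07g23450D (5, 3 and 4 TPM, then 1, 2 and 1 TPM) were lost in 5 of 6 such fits.

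The most abundant genes of each time overlapped only in part. BnaA07g30010D had the highest level at 7 DAF, with 8691, 7307 and 7840 TPM, and was at 2622, 1836 and 2828 TPM at 14 DAF (−1.73 ± 0.39, adjusted p = 0.0067), a call that was lost without any 1 of the 6 libraries (adjusted p between 0.0142 and 0.0357). BnaC05g36760D fell from 3980, 3429 and 4000 TPM to 519, 519 and 819 TPM. In the other direction BnaC05g31880D rose from 988, 1374 and 1045 TPM to 7104, 4537 and 6031 TPM, BnaC09g13470D from 2001, 2319 and 2389 TPM to 5281, 6163 and 5373 TPM, BnaA05g18870D from 992, 1193 and 985 TPM to 4935, 3039 and 4140 TPM, and BnaA08g04880D from 361, 840 and 441 TPM to 3501, 3613 and 3717 TPM. These 5 genes kept their calls with each library left out, and none of the 6 carries an annotation in the sources used here.

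Genes of oil synthesis did not pass in these plots, where 3.07% of all genes tested rose and 2.65% fell. A count of 0 in a list of 27 lies near these shares. Of 27 fatty acid and oil synthesis genes 0 rose and 0 fell in limma (3 and 1 at an unadjusted p under 0.05), and their median difference was 0. Their sum was 417, 417 and 424 TPM at 7 DAF and 443, 402 and 432 TPM at 14 DAF. BnaC05g40970D, an ortholog of the oleate desaturase FAD2, was at 78, 98 and 89 TPM and then at 97, 66 and 100 TPM, and BnaC07g19000D, the ketoacyl synthase KAS1, at 27, 25 and 29 TPM and then at 29, 31 and 30 TPM. BnaA07g16350D, a copy of WRI1, the factor that switches on fatty acid synthesis genes in Arabidopsis seeds, rose from 0, 1 and 1 TPM to 5, 7 and 8 TPM (2.76 ± 0.60, adjusted p = 0.0049). This call was lost without replicate 1 of 7 DAF or any replicate of 14 DAF (adjusted p between 0.013 and 0.036). The WRI1 copies BnaA09g34250D (3, 3 and 2 TPM, then 5, 6 and 5 TPM) and BnaC08g25150D (5, 5 and 3 TPM, then 5, 8 and 7 TPM) did not pass. The oleosins, which coat oil bodies, were at most at 1 TPM in the 6 libraries, and storage proteins had no annotated gene here.

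Nor did genes pass in the lists of sucrose cleavage and transport (5 tested, median 0.38, 3 and 0 at an unadjusted p under 0.05), starch (5 tested, median 0.25, 2 and 0) or late embryogenesis abundant proteins (9 tested, median 0.00, 0 and 0). All counts in this paragraph stand beside 3.07% rising and 2.65% falling genes over all genes tested. BnaC03g10290D, a sucrose synthase, was at 34, 31 and 38 TPM and then at 48, 43 and 44 TPM, and BnaA05g07860D, a starch branching enzyme, at 35, 34 and 32 TPM and then at 48, 47 and 47 TPM (adjusted p = 0.0103). Both were higher in every library at 14 DAF. Of 16 chaperonins of the TCP-1 and Cpn60 type 15 had a difference above 0, all small (median 0.10), and of 47 vesicle coat and SNARE proteins 37 did (median 0.17), with 0 and 1 that rose. That 1 was BnaC07g43280D, a subunit of the coatomer that coats vesicles of the secretory pathway, with 21, 22 and 23 TPM and then 30, 29 and 29 TPM, and it was lost without any 1 of the 6 libraries (adjusted p up to 0.034).

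Of 14 self-incompatibility S1 and prolamin-like genes, a class of small secreted proteins, 13 had a difference above 0 (median 0.82). Against 5.72% of all genes tested, 0 of the 14 passed (2 and 0 at an unadjusted p under 0.05). Their sum was 764, 1535 and 306 TPM at 7 DAF and 3104, 723 and 1890 TPM at 14 DAF, so the groups overlapped and the spread within a time was wide. BnaC03g08430D was at 126, 295 and 50 TPM and then at 796, 181 and 429 TPM.

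Among transcription factors, passing members were scattered over the families. Of 51 MYB genes 3 rose and 1 fell, of 42 AP2/ERF genes 1 rose and 2 fell (median −0.42), of 31 NAC, 18 MADS-box, 15 WRKY and 9 B3 genes 1 each rose and 0 fell, and of 24 bZIP genes 0 passed (1 and 5 at an unadjusted p under 0.05). These shares lie between 0 and 11.1% of a family, against 5.72% of all genes. The B3 gene, BnaA07g20790D, was at 7, 7 and 7 TPM and then at 11, 11 and 11 TPM, and its call was lost without any 1 of the 6 libraries (adjusted p between 0.0238 and 0.0278). BnaA07g17280D, an ortholog of the MADS-box factor AGL18, rose from 3, 4 and 5 TPM to 17, 21 and 15 TPM (2.02 ± 0.26, adjusted p = 4.3e-05). BnaA10g17370D, an ortholog of RVE1, a MYB-related factor of the circadian output in Arabidopsis, rose from 4, 4 and 7 TPM to 15, 21 and 18 TPM. BnaC01g06900D, an ortholog of WRKY11, was at 6, 4 and 6 TPM and then at 13, 19 and 25 TPM, past the threshold in 1 of 6 fits with a library left out, that without replicate 1 of 14 DAF. The homeobox gene BnaA03g27000D, an ortholog of ANL2, which acts in anthocyanin accumulation in the Arabidopsis leaf, rose from 8, 8 and 10 TPM to 32, 27 and 26 TPM (1.66 ± 0.15, adjusted p = 2.2e-06).

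**Figure D3:**
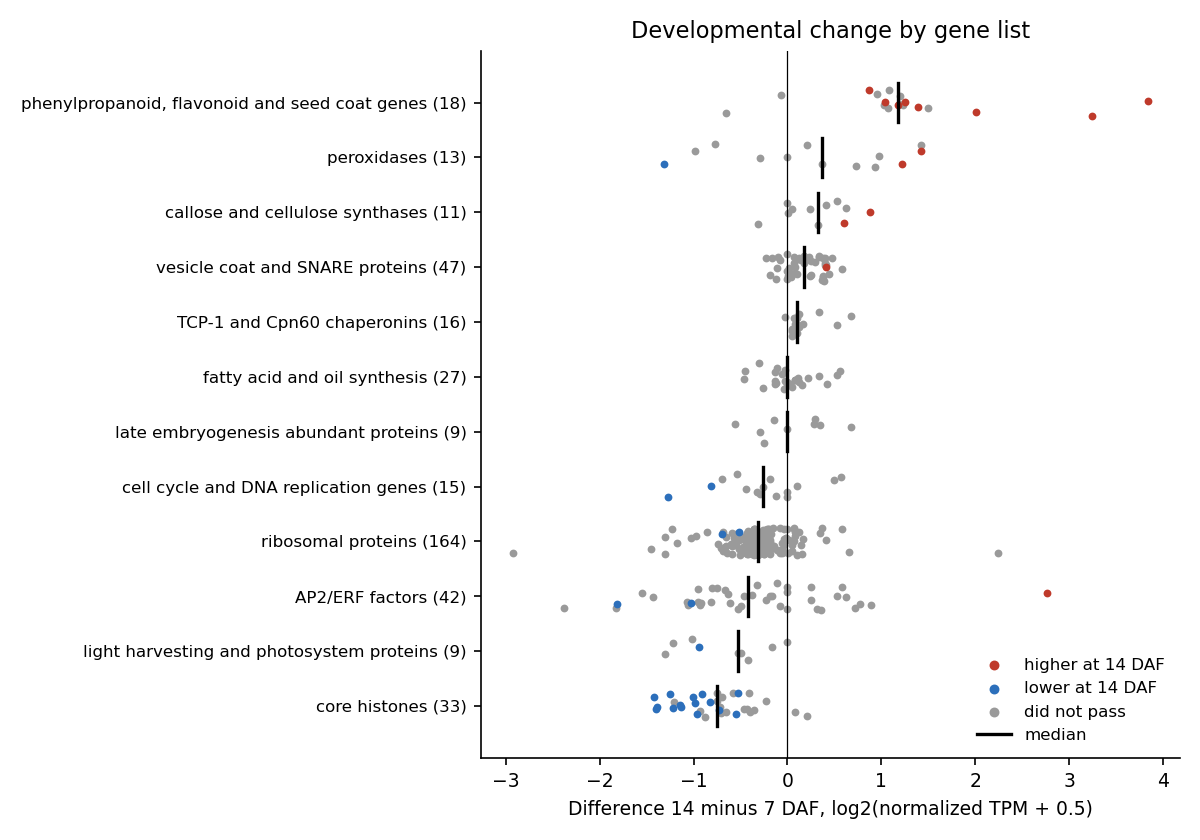
Difference between 14 and 7 DAF (x axis, log2(normalized TPM + 0.5)) of each tested member of 12 gene lists, with the number tested in parentheses and the median as a black line. Red points rose, blue points fell and grey points did not pass. Among the 12 lists shown, the flavonoid list (median 1.18) and the core histones (median −0.75) lie farthest from 0. Other lists are not shown, such as the self-incompatibility S1 and prolamin-like genes (median 0.82).

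Of 630 Arabidopsis orthologs with several tested copies, 82 had a copy past the threshold. Among these 82, several copies passed in 14 and all copies in 10, with 0 orthologs whose copies passed in both directions. In 64 of the 82 all copies had a difference of the same sign. The same share over all 630 was not computed, and how reads were shared between similar copies is set by the quantification. These counts are therefore description only. CHS had all 3 copies rising, and the H3 ortholog AT5G65350 all 3 falling.

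Transcription factors that the study names as candidates showed no change between these times that passed the test. BnaC09g47170D, a NAC gene, was at 8, 6 and 6 TPM and then at 11, 11 and 9 TPM (adjusted p = 0.21), BnaC01g44850D, a B3 gene, at 5, 3 and 3 TPM and then at 2, 1 and 2 TPM (adjusted p = 0.096), and BnaA09g52630D, a zinc finger gene, at 10, 11 and 11 TPM and then at 12, 14 and 13 TPM (adjusted p = 0.25). BnaA03g05670D, a bZIP gene, was at 3, 8 and 1 TPM and then at 0, 1 and 1 TPM. The other 5 genes that the study names by identifier were at no more than 3 TPM in any of the 6 libraries. Among them is BnaA01g19380D, an ortholog of the ubiquitin ligase DA2 and not a transcription factor.

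The genes that changed were next followed in the other 3 Lumen conditions, which share no library with this comparison. In shaded plots of the optimal sowing date, 1581 of the 1647 rising and 1337 of the 1420 falling genes had a difference of the same sign, and 378 and 153 passed the test in that direction. In control plots of the late sowing date 1477 and 1233 had the same sign and 837 and 531 passed, and in shaded plots of the late sowing date 1415 and 1180 had the same sign and 811 and 554 passed. Over all genes tested, 1.32% passed in the first condition (0.922% higher and 0.399% lower), 10.2% in the second (5.69 and 4.47%) and 12.4% in the third (5.83 and 6.58%). The median difference of the 1647 genes was 0.68, 0.77 and 0.73 in the 3 conditions, and that of the 1420 genes −0.62, −0.66 and −0.64. The larger medians of 1.21 and −1.23 in optimal control plots were taken on the same values that chose the genes. Their size can therefore not be compared with that in the other 3 conditions. Genes that passed in the opposite direction numbered 0 and 3 in the first, 2 and 8 in the second and 16 and 11 in the third condition.

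**Figure D4:**
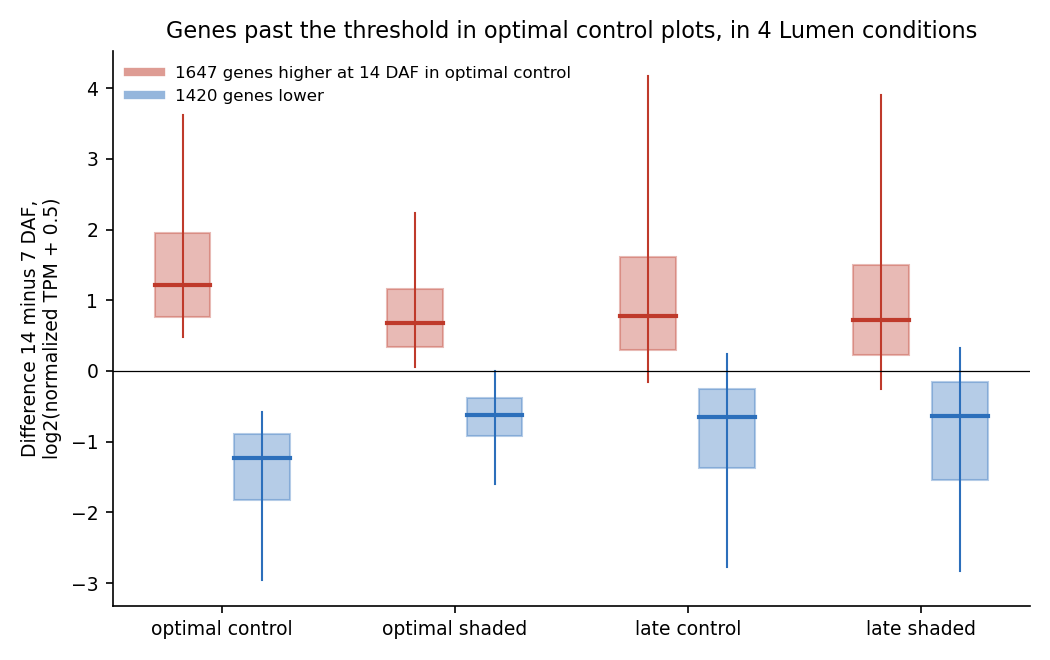
Difference between 14 and 7 DAF (y axis, log2(normalized TPM + 0.5)) in 4 Lumen conditions for the 1647 genes that rose (red) and the 1420 that fell (blue) in optimal control plots. Boxes span the quartiles, thick lines mark the medians and whiskers run from the 5th to the 95th percentile. The medians keep their sign in the other 3 conditions, at 0.68 to 0.77 and −0.62 to −0.66.

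The lists were then followed in the other conditions. Over all genes tested, 0.922% rose and 0.399% fell in shaded plots of the optimal sowing date. In late control plots 5.69% rose and 4.47% fell, and in late shaded plots 5.83% rose and 6.58% fell. The counts below are to be read against these shares. Of the 18 flavonoid genes 4 rose in shaded plots of the optimal sowing date (median 0.94), 13 in late control plots (1.74) and 13 in late shaded plots (2.10), and 0 fell in any of them. Levels of CHS were highest in late sowing: BnaA03g04590D was at 11, 11 and 9 TPM and then at 254, 180 and 102 TPM in late control plots, and at 1, 1 and 2 TPM and then at 13, 5 and 10 TPM in shaded plots of the optimal date. Of the 33 core histones 1 fell in shaded plots of the optimal date (median −0.48), 3 in late control plots (−0.35) and 0 in late shaded plots (0.00). Of the 27 oil genes 0 passed in shaded plots of the optimal date, while 4 rose in late control plots (median 0.42) and 7 in late shaded plots (0.37). No test compared these lists between conditions. The genes past the threshold for a difference between conditions, given next, include none of the listed histone, flavonoid or oil genes. Of those genes only 1 of 7 (against shaded plots) and 7 of 104 (against late sowing) carry an annotation. Unannotated genes of these classes would therefore not be recognized.

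The SAG12 ortholog BnaC07g18750D was higher at 14 DAF in every library of all 4 conditions, at 39, 32 and 23 TPM in shaded plots of the optimal date, 1594, 1509 and 1642 TPM in late control plots and 1903, 567 and 3145 TPM in late shaded plots. BnaC03g31600D, at 66, 99 and 97 TPM at 14 DAF in optimal control plots, was at 6, 0 and 26 TPM in shaded plots of the optimal date and at 3107, 720 and 745 TPM in late control plots. BnaCnng22600D, at 0 at 14 DAF in optimal control plots, was at 2, 10 and 8 TPM in shaded plots of the optimal date.

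Whether the developmental change of control plots differed from that of shaded plots in the optimal sowing date was tested gene by gene as a difference of differences, and 7 of 53585 genes passed (0.0131%, with 4003 at an unadjusted p under 0.05). Of these, 4 had a more positive (0.00746%) and 3 a more negative (0.0056%) change in control plots. This test uses the 6 libraries of the comparison again. In 3 genes the direction turned. BnaA06g15800D was at 64, 62 and 55 TPM and then at 24, 17 and 28 TPM in control plots, but at 27, 15 and 17 TPM and then at 41, 46 and 50 TPM in shaded plots (difference of changes −2.63 ± 0.32, adjusted p = 0.0019). BnaC07g29830D went from 195, 212 and 236 TPM to 99, 133 and 104 TPM in control plots and from 79, 82 and 79 TPM to 166, 275 and 151 TPM in shaded plots (−2.19 ± 0.25, adjusted p = 0.0014). BnaA03g45080D followed the same pattern, from 21, 24 and 25 TPM to 13, 11 and 14 TPM in control plots and from 10, 9 and 8 TPM to 18, 31 and 22 TPM in shaded plots (−2.18 ± 0.25). In both conditions of late sowing, each of the 3 was lower at 14 DAF in every library.

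In the other 4 genes the rise of the control plots was not seen, or was small, in shaded plots. BnaA03g56490D rose from 10, 11 and 9 TPM to 34, 35 and 35 TPM in control plots and was at 13, 18 and 20 TPM and then at 21, 15 and 18 TPM in shaded plots (1.66 ± 0.20). BnaC03g21300D rose from 6, 6 and 6 TPM to 28, 33 and 27 TPM in control plots, with 7, 13 and 11 TPM and then 14, 10 and 12 TPM in shaded plots (1.96 ± 0.24). BnaA05g17490D and BnaC07g42680D, an AFG1-like ATPase and the only annotated gene of the 7, were both listed at 0 in control plots at 7 DAF and at 3, 4 and 3 TPM at 14 DAF, against 1, 1 and 1 TPM and then 1 or 2 TPM in shaded plots. At such levels the rounding to whole TPM decides the value, and with pseudocounts of 1 and 2 neither passed (adjusted p between 0.018 and 0.043). The 7 genes were chosen by no list, and BnaA06g15800D, BnaC07g29830D, BnaA03g45080D, BnaA03g56490D, BnaC03g21300D and BnaA05g17490D, which fall outside the rule for named genes, are given because the count is small.

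The calls of BnaC07g29830D and BnaA03g45080D held with each of the 12 libraries left out, those of BnaA06g15800D, BnaC03g21300D, BnaA03g56490D and BnaA05g17490D in 11, 10, 8 and 8 of 12 fits, and that of BnaC07g42680D in 1. The count fell to 4 without control replicate 3 of 7 DAF, 3 without control replicate 2 of 14 DAF, and 4 and 2 without shaded replicates 2 and 3 of 7 DAF. In a fit of all 48 libraries 0 genes passed (3502 at an unadjusted p under 0.05).

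**Figure D5:**
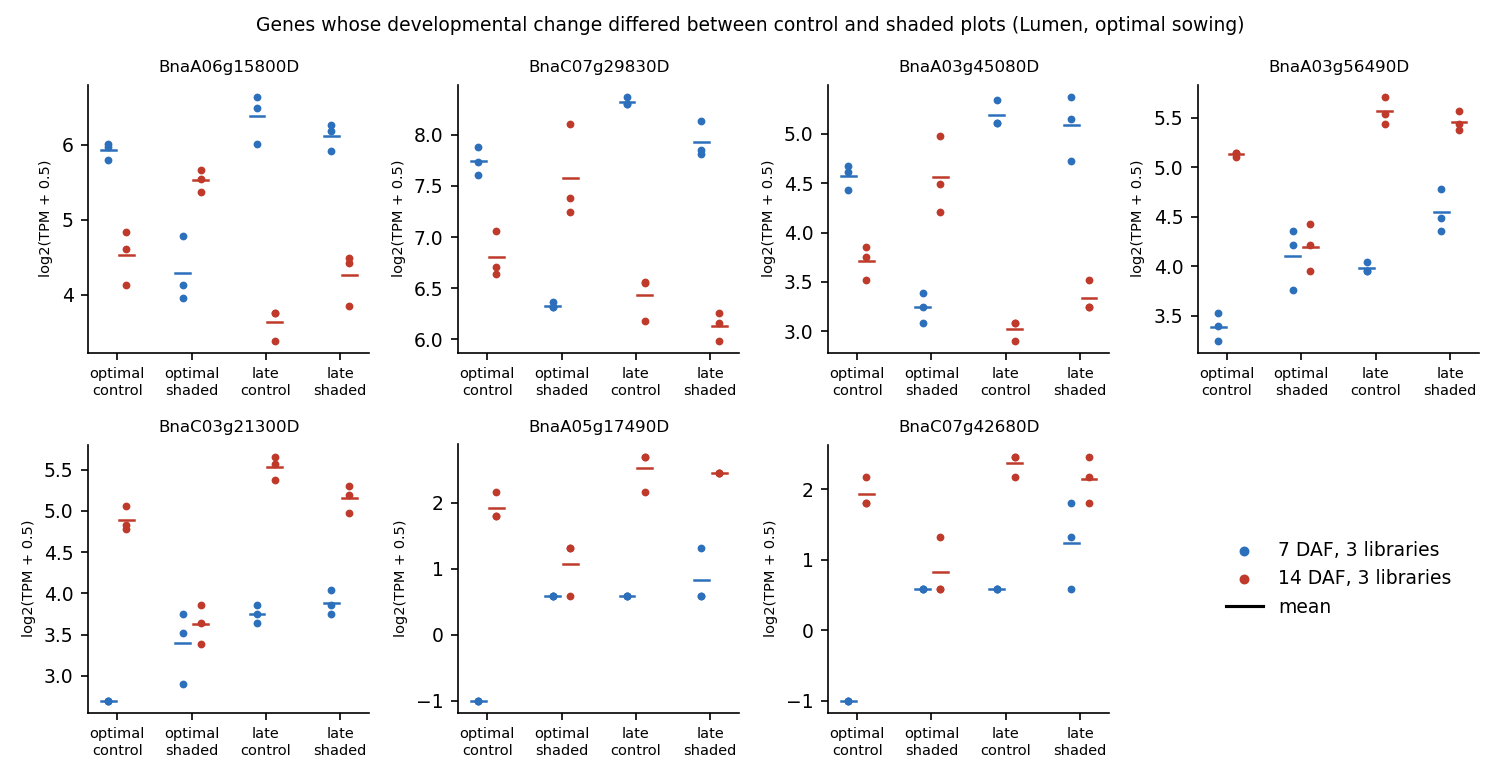
Levels (y axes, log2(normalized TPM + 0.5), each panel with its own scale) of the 7 genes whose developmental change differed between control and shaded plots, in 4 Lumen conditions, with 7 DAF in blue, 14 DAF in red, 3 points each and a short line at the mean. In the first 3 panels red lies below blue in every condition but the shaded plots of the optimal date, where it lies above.

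Against late sowing in control plots, 104 genes had a different developmental change (0.194% of those tested, with 10895 at an unadjusted p under 0.05), 53 with a more positive and 51 with a more negative difference in the optimal date, and 7 of the 104 were annotated. BnaA05g07770D, an ortholog of the glycolytic enolase LOS2, rose in the optimal date from 112, 126 and 123 TPM to 266, 225 and 251 TPM (1.04 ± 0.10, adjusted p = 2.3e-06), while in late sowing it was already at 260, 223 and 210 TPM at 7 DAF and at 231, 266 and 245 TPM at 14 DAF (difference of changes 0.93 ± 0.14, adjusted p = 0.0050). The homeobox gene BnaA03g27000D was likewise higher at 7 DAF in late sowing, with 18, 19 and 20 TPM and then 25, 25 and 24 TPM (difference of changes 1.29 ± 0.22, adjusted p = 0.0080). BnaC08g30470D, a small zinc finger protein of the FLZ family, fell in the optimal date from 58, 60 and 63 TPM to 16, 21 and 14 TPM and was at 30, 22 and 41 TPM and then at 31, 26 and 32 TPM in late sowing (−1.79 ± 0.25).

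In the other 4 annotated genes the optimal date gave no change that passed, and the late date did. BnaC08g31360D, an ortholog of the plasma membrane aquaporin PIP1;1, was at 21, 23 and 25 TPM and then at 17, 21 and 18 TPM in the optimal date, and rose from 10, 12 and 11 TPM to 28, 23 and 28 TPM in the late date (−1.52 ± 0.16, adjusted p = 7.1e-04). BnaC01g03520D, an actin-depolymerizing factor, was at 30, 22 and 21 TPM and then at 16, 23 and 20 TPM against 13, 14 and 13 TPM and then 60, 48 and 44 TPM (−2.17 ± 0.38). BnaC07g47330D, a large subunit of the ADP-glucose pyrophosphorylase of starch synthesis, was at 28, 24 and 30 TPM and then at 36, 46 and 38 TPM against 34, 47 and 43 TPM and then 20, 24 and 23 TPM (1.40 ± 0.21), and BnaC03g38710D, a mechanosensitive ion channel, at 3, 3 and 4 TPM and then at 6, 5 and 5 TPM against 6, 6 and 9 TPM and then 2, 2 and 3 TPM (2.01 ± 0.33).

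Of these 7 genes the aquaporin kept its call with each of the 12 libraries left out, BnaC08g30470D in 6, BnaA05g07770D in 5, BnaC07g47330D and BnaC03g38710D in 2 each, BnaA03g27000D in 1 and BnaC01g03520D in 0, with adjusted p of at most 0.032. The count of 104 was 7, 13 and 14 without optimal replicates 1, 2 and 3 of 7 DAF and 10, 48 and 7 without those of 14 DAF, and 333, 18 and 16 without late replicates 1, 2 and 3 of 7 DAF and 14, 16 and 89 without those of 14 DAF.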

How the data were processed

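RNA-seq reads were pseudo-aligned by the authors with kallisto 0.46 to 101040 cDNAs, normalized between libraries with sleuth, and deposited as a score per gene, the normalized TPM rounded to whole numbers (checked on 1109 genes, largest difference 0.5 TPM). Depth is unknown, so no count test was used. Genes at 1 TPM or more in at least 47% of the 24 Lumen libraries (53585) were tested as log2(TPM + 0.5) with limma 3.58.1 (R 4.3.3), with 8 group means, a trend and Benjamini-Hochberg adjustment over all genes, the threshold being adjusted p under 0.01. Differences of changes are contrasts of the same fit. Replicates are field plots. Main plots and subplots had no term, so p-values measure the spread between these plots. The members and the 43 gene lists were chosen with earlier results of these data known. Annotation for 5278 genes came from the study's supplementary tables; RefSeq names and coordinates (another build) were not used. Named genes were the 5 and 5 largest rises and falls without overlap and with at least 10 TPM, 12 and 12 among annotated genes, up to 4 most abundant members per list, the 10 most abundant genes per time, the 5 and 5 largest annotated differences between conditions, and genes the study names; list members outside this rule were chosen after their values were seen. The scripts were tested on simulated data.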

Additional observations from a re-analysis of the deposited data

Results flagged for a closer look

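The developmental change of optimal control plots was tested against that of 2 other Lumen conditions. Against shaded plots 7 genes differed past the threshold (limma, adjusted p under 0.01), among them 1 annotated gene, the AFG1-like ATPase BnaC07g42680D, with a difference of changes of 2.68 on the log2 scale at levels of at most 4 TPM in both conditions. Against late sowing 104 genes differed, and the annotated ones were BnaC03g38710D (2.01), BnaC07g47330D (1.40), BnaA03g27000D (1.29) and BnaA05g07770D (0.93) with a more positive change in the optimal date, and BnaC01g03520D (−2.17), BnaC08g30470D (−1.79) and BnaC08g31360D (−1.52) with a more negative one. Groups of 3 libraries are too small for a search for single outlying values.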

How the results depend on the processing

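No setting reversed any of the 3067 calls between 14 and 7 DAF. Their number stayed within 1.5 times under all 48 libraries, pseudocounts of 1 and 2, other filters, 3 other scalings and a fit without trend (2828 to 3257), and was 6312 at adjusted p under 0.05. Rescaling to equal sums moved the median of all genes to −0.038. Leaving out 1 library gave 1648 to 2093 genes. A fit of the 6 libraries alone called 2920 genes, of which 1476 were among the 3067. Of 1233 alternative values of the 65 named genes that passed, 1010 kept their call and 223 lost it, 111 of these with a library left out.

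The difference from shaded plots, 7 genes, became 0 with all 48 libraries, 40 without a filter, 17 without trend, 42 in the libraries compared only (1 of the 7 kept), 30 at adjusted p under 0.05 and 2 to 9 with a library left out. The difference from late sowing, 104 genes, became 197 with all 48 libraries, 259 without a filter, 159 with at least 5 TPM in 3 libraries, 69 without trend, 1519 at adjusted p under 0.05 and 7 to 333 with a library left out. The cause was not tested.

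Replicate numbers are shared between groups, and both times were sampled in the plots of a field design with 3 replicates, but the labels do not tie a number to a plot. The deviations of same-numbered libraries of both times correlated at 0.022, −0.284 and −0.125, so the numbers were not taken as pairs. With a replicate block the counts were 3032, 6 and 120, and in fits of the compared libraries with a block 328, 0 and 0, with 88 of the 3067 and none of the 65 named genes kept (5678 and 10977 genes at an unadjusted p under 0.05 in the last 2).

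Functions are given only for genes of the readable annotation. Rounding limits levels of a few TPM, and depth is unknown. The fits had no term for the main plots, to which sowing dates were assigned.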
